A study of Mus musculus with 71 samples.

Results

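The genes described here are 9 protein-coding neighbours of Foxp2 on mouse chromosome 6, namely Mdfic, Tmem106b, Cav1, Cav2, Tes, Met, Capza2, Gpr85 and St7, out of 15768 genes measured on striatal arrays. They were taken from a list of row identifiers chosen by their closeness to the modified gene and with earlier results of these arrays known. Mdfic was also selected on its high values in humanised embryos and Tmem106b on its low values in humanised juveniles of line Ki, so those 2 comparisons are given as descriptions with no test. Of the 9 genes, 8 passed the filter that left out the dimmest 40% of genes, and Met, whose mean level was above only 18.3% of genes, did not. The identifiers were linked to symbols through that list, since 0 of the 15768 rows matched a symbol in the RefSeq gene table at hand.

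Foxp2 encodes a forkhead transcription factor that is abundant in striatal projection neurons and whose human counterpart is linked to speech and language. An allele made in embryonic stem cells and passed on by breeding stays joined to the DNA around it, because recombination seldom separates close neighbours. Any sequence difference between the stem-cell chromosome and its wild-type counterpart near the modified gene is therefore inherited together with the allele, and so is any effect of an inserted cassette on genes nearby. The comparison of interest was whether neighbours of Foxp2 differ between genotypes, in which lines and stages, and whether wild types of the lines differ without any modified allele.

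Humanised mice (Foxp2hum/hum) carry 2 human amino acid substitutions in exon 7 of the mouse gene on both chromosomes, and heterozygous knock-out mice (Foxp2wt/ko) carry 1 disrupted copy. Line Ki2 supplied 13 Foxp2hum/hum and 12 wild-type (Foxp2wt/wt) embryos of stage E16.5 and 6 Foxp2hum/hum and 5 wild-type adult females of postnatal day 95. Line Ki supplied 11 Foxp2hum/hum and 6 wild-type juveniles of postnatal days 15, 18 and 21, and line Ko supplied 12 Foxp2wt/ko and 6 wild-type juveniles of the same days. Each line descends from 1 stem-cell clone. Lines Ki and Ko both trace to clone 5H11, and in line Ki the neomycin resistance cassette was removed with a FLPe deleter strain. For line Ki2 the labels name clone 5H10 in one place and 5C10 in another, and say nothing of its cassette being removed. The stem cells came from C57BL/6 mice and the deleter strains and the partners of line Ko were C57BL/6J or B6 mice, so the labels give the flanking DNA and the breeding partners the same strain name; sequence differences between them were not measured here. Embryonic and adult striata were dissected whole and included the pallidum, while juvenile striata were punched from slices.

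Each array held 1 animal, except 1 Foxp2wt/ko array pooled from 2 animals. The arrays came from 26 litters, 13 of which held both genotypes, and the median log2 value of an array was 6.82 at the lowest and 6.98 at the highest. The adult arrays fell into 2 sets along their first principal component, which carried 49.3% of the variance: 6 arrays lay between -27.4 and -12.8 and 5 between 21.4 and 25.1, with 3 Foxp2hum/hum arrays in each. Foxp2 itself could not be looked up by name. The row ENSMUSG00000029563_at was the only gene called in line Ko, at 8.58 to 9.40 in the 12 Foxp2wt/ko arrays and 9.42 to 10.04 in the 6 wild-type arrays, a log2 difference of -0.59 (limma, adjusted p = 0.000829). Markers of striatal neurons and of other cell types could not be looked up either, so neither the tissue label nor its cell composition was checked. In such bulk samples, fewer cells of a type and less RNA per cell cannot be told apart.

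On the chromosome, in the order of the RefSeq annotation (GRCm38.p6), Tmem106b and Gpr85 lie before Foxp2, with 7 and 2 protein-coding genes in between. Mdfic comes directly after Foxp2, with 0 protein-coding genes in between. Tes follows with 2 in between, Cav2 with 3, Cav1 with 4, Met with 5, Capza2 with 6 and St7 with 7. The genes picked for a genotype difference were thus the closest neighbour on one side and the farthest listed neighbour on the other. The promoter windows of these 2 genes, 300 bases that lie mostly before the annotated start, are shown because the results turn on Mdfic and Tmem106b. Both are RefSeq sequences on the + strand of GRCm38.p6, Mdfic at chr6:15720411-15720710 and Tmem106b at chr6:13069509-13069808. Capitals mark TGTTTNC, a relaxed form of the forkhead motif TGTTTAC, searched on both strands.
Mdfic: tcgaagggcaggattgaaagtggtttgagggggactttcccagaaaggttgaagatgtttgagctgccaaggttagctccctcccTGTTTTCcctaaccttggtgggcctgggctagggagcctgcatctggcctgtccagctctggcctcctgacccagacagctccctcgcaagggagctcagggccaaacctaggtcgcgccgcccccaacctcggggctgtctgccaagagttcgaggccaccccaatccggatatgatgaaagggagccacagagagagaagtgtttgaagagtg
Tmem106b: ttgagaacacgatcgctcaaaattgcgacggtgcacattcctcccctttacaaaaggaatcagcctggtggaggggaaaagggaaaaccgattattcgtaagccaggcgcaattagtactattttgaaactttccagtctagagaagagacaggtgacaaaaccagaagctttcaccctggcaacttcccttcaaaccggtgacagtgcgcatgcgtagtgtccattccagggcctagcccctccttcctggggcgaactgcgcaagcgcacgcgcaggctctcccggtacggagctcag
TGTTTAC was found in 0 of the 9 neighbours' promoters and in 3.65% of all 32851 promoters of this length. The relaxed motif, of which TGTTTAC is 1 case, occurred in 20.5% of all promoters, once in the Mdfic window at position 86 and nowhere in the Tmem106b window. Among the other neighbours it occurred once in the Cav2 window, at position 199, and in 1 of the 3 windows of St7, at position 89. The Mdfic window held 58.3% G and C with 8 CpG dinucleotides and the Tmem106b window 53.0% with 17, against medians of 52.7% and 7 over all promoters.

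Mdfic (ENSMUSG00000041390_at) encodes a protein with a MyoD family inhibitor domain that binds transcription factors and modulates their activity. In the striatum of line Ki2 embryos, its log2 level ran from 6.95 through a median of 7.80 to 8.56 in the 13 Foxp2hum/hum arrays, against 6.33, 7.00 and 7.62 in the 12 wild-type arrays. The ranges overlapped, with 8 of the 13 Foxp2hum/hum embryos above every wild-type embryo. Means were 7.80 ± 0.50 in Foxp2hum/hum and 6.97 ± 0.38 in wild-type embryos (SD), and the difference adjusted for sex and run was 0.81 on the log2 scale (95% interval 0.47 to 1.15), a 1.76-fold higher level (1.39 to 2.22). This comparison chose the gene, so no test is attached. Of the 8 neighbours 0 passed an adjusted p of 0.05 in embryos, as did 0 of 9461 genes (limma, 0%), and 465 genes (4.91%) had an unadjusted p under 0.05; 0.0106% of genes had a larger absolute difference than Mdfic.

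The embryos were hybridised in 2 array runs. Run 4 held 6 Foxp2hum/hum and 5 wild-type embryos, with Mdfic means of 7.77 ± 0.59 and 7.20 ± 0.39, and gave a difference of 0.28 with sex in the fit (-0.39 to 0.95). In run 5, with 7 embryos of each genotype, the means were 7.83 ± 0.46 in Foxp2hum/hum and 6.81 ± 0.29 in wild-type embryos and the difference was 1.04 (0.66 to 1.43). The Foxp2hum/hum means lay closer together between the 2 runs than the wild-type means did; the change of the effect between runs was not tested. In run 4 all 6 Foxp2hum/hum embryos were female while 3 of the 5 wild types were male, so that the 0.28 rests on the sex term as well; run 5 held 2 female and 5 male Foxp2hum/hum embryos beside 3 female and 4 male wild types. In the 4 litters that held both genotypes, Foxp2hum/hum minus wild type was 0.30 in litter 21 of run 4 and 1.18, 0.68 and 1.04 in litters 16, 17 and 18 of run 5. All 4 are positive, but their embryos are among the arrays that chose the gene, so the values add no support.

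**Figure D1:**
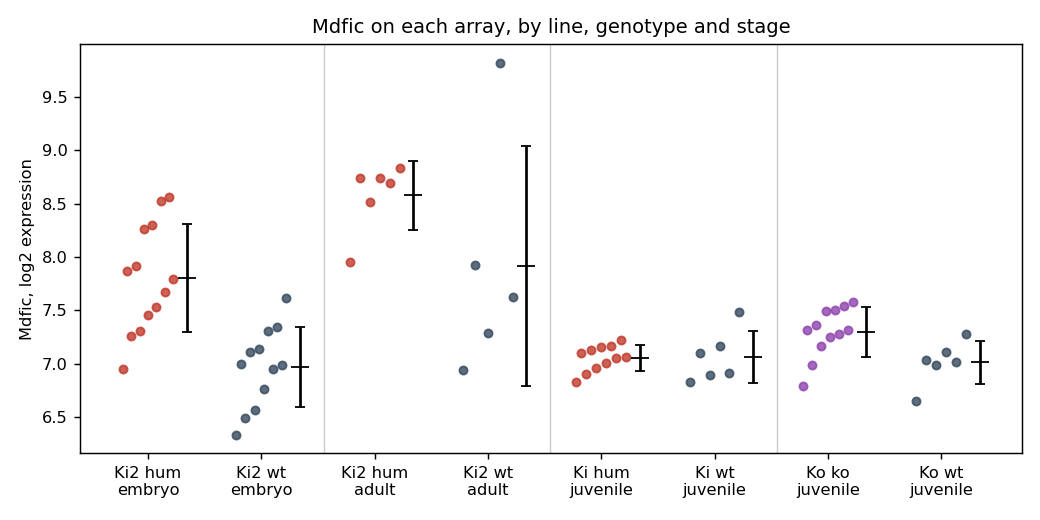
Mdfic level (log2, vertical axis) on every array, by line, stage and genotype, with Foxp2hum/hum or Foxp2wt/ko to the left of the wild types of the same line; points are arrays and bars the mean ± SD. Foxp2hum/hum embryos reach 8.56 and wild-type embryos 7.62, while in line Ki juveniles both genotypes average close to 7.06.

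Adults of the same line are other animals and did not enter the choice of Mdfic. The 6 Foxp2hum/hum adults ran from 7.95 through 8.72 to 8.83, while the 5 wild-type adults had 6.94, 7.28, 7.62, 7.92 and 9.82. All but 1 of the wild-type arrays lay below all Foxp2hum/hum arrays, and the exception, wild-type replicate 4 of litter 25, lay above all of them. Means were 8.58 ± 0.33 in Foxp2hum/hum and 7.92 ± 1.12 in wild-type adults, a difference of 0.66 (-0.22 to 1.54; limma, adjusted p = 0.729). The difference was not significant, and 0 of 9461 genes passed in adults (0%), with 643 at an unadjusted p under 0.05 by limma. Without wild-type replicate 4 the difference was 1.13 (0.67 to 1.60; limma, adjusted p = 0.747). Litter 20 gave +0.81 and litter 25, which holds that array, -0.10. With litter as a fixed block, in which only these 2 litters inform the genotype, the difference was 0.21 (-1.09 to 1.503; limma, adjusted p = 1.000).

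In line Ki juveniles, Mdfic ran from 6.83 through 7.06 to 7.22 in 11 Foxp2hum/hum arrays and from 6.82 through 7.01 to 7.49 in 6 wild-type arrays. The Foxp2hum/hum range lay wholly inside the wild-type range. The difference was -0.01 (-0.21 to 0.20; limma, adjusted p = 0.9998), so the interval excludes a difference of the size seen in embryos. Its effect in Ki2 embryos minus that in Ki juveniles was 0.82 (0.27 to 1.37), given without a test because it contains the embryonic contrast. Line, stage and dissection change together between these settings and cannot be told apart. Between embryos and adults of line Ki2 the effects differed by 0.16 (-0.46 to 0.77).

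Line Ko gave a smaller difference in the same direction as Ki2. Mdfic ran from 6.79 through 7.31 to 7.58 in 12 Foxp2wt/ko arrays and from 6.65 through 7.03 to 7.27 in 6 wild-type arrays. The ranges overlapped, with 7 of the 12 Foxp2wt/ko arrays above every wild-type array. Means were 7.30 ± 0.23 in Foxp2wt/ko and 7.01 ± 0.20 in wild-type juveniles, a difference of 0.28 (0.08 to 0.48) or 1.22-fold (1.06 to 1.40). Its unadjusted p of 0.0076 ranked 19 among 9461 genes, of which 1.85% were under 0.05, and did not survive adjustment (limma, adjusted p = 0.9997). None of the 8 neighbours tested passed in line Ko, where 0.0106% of all genes did. The 3 litters with both genotypes gave +0.04, +0.38 and +0.38, and by day the Foxp2wt/ko and wild-type means were 7.25 and 7.07 on day 15, 7.37 and 6.96 on day 18, and 7.29 and 7.00 on day 21. Mdfic was the higher in Foxp2wt/ko arrays on each day. The Foxp2hum/hum effect of line Ki minus the Foxp2wt/ko effect of line Ko was -0.29 (-0.58 to -0.00), a difference that did not pass either (limma, adjusted p = 0.9998; 0.0106% of genes passed).

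**Figure D2:**
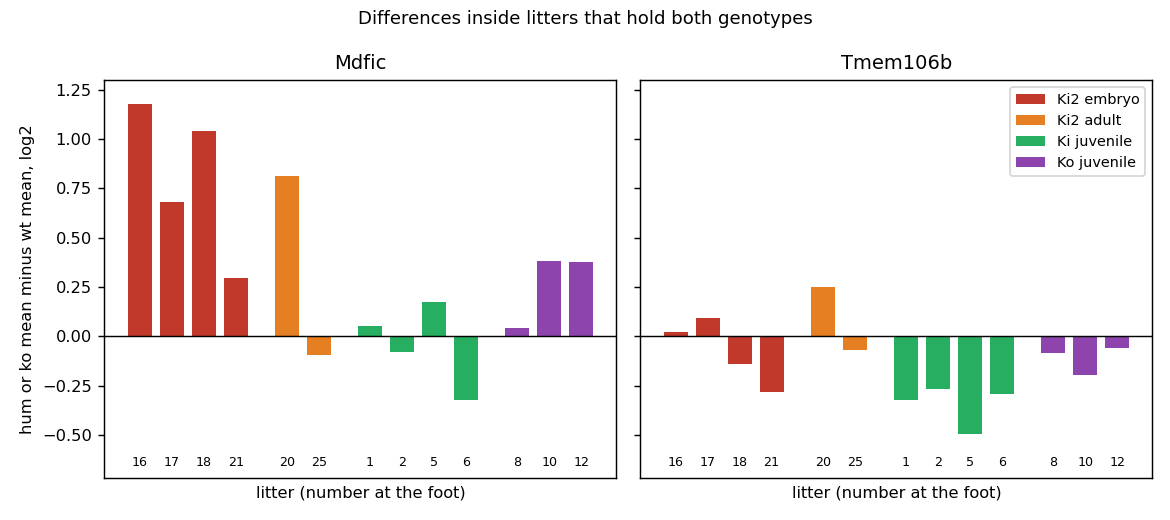
Mean Mdfic and Tmem106b level of Foxp2hum/hum or Foxp2wt/ko animals minus that of their wild-type littermates (log2, bars), in each of the 13 litters that held both genotypes. Mdfic is positive in 4 of 4 embryonic litters and 3 of 3 line Ko litters, and Tmem106b is negative in 4 of 4 line Ki litters; the embryonic and line Ki litters hold the arrays that chose these genes.

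Tmem106b (ENSMUSG00000029571_at) encodes a lysosomal membrane protein that influences lysosome size and acidification, and its human counterpart is a known modifier of frontotemporal dementia risk. In line Ki juveniles its log2 level ran from 6.34 through 6.58 to 6.80 in 11 Foxp2hum/hum arrays, against 6.77, 6.88 and 7.02 in 6 wild-type arrays. The groups overlapped by a single array, with 10 of 11 Foxp2hum/hum arrays below every wild-type array. Means were 6.59 ± 0.13 in Foxp2hum/hum and 6.87 ± 0.09 in wild-type juveniles, a difference of -0.28 (-0.41 to -0.15), or 0.82-fold (0.75 to 0.90). This contrast chose the gene and is a description; 0 of 9461 genes passed in it by limma (0%), 292 (3.09%) had an unadjusted p under 0.05, and 0.994% of genes had a larger absolute difference.

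The same line Ki arrays, which chose the gene and so lend it no support, are given by run, litter and day. Foxp2hum/hum minus wild type was -0.19 in run 1, -0.31 in run 2 and -0.35 in run 3. Litters 5, 1, 6 and 2 gave -0.49, -0.32, -0.29 and -0.26. By day, Foxp2hum/hum and wild-type means were 6.50 and 6.90 on day 15, 6.65 and 6.88 on day 18, and 6.61 and 6.85 on day 21. Each day had only 2 wild-type arrays.

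**Figure D3:**
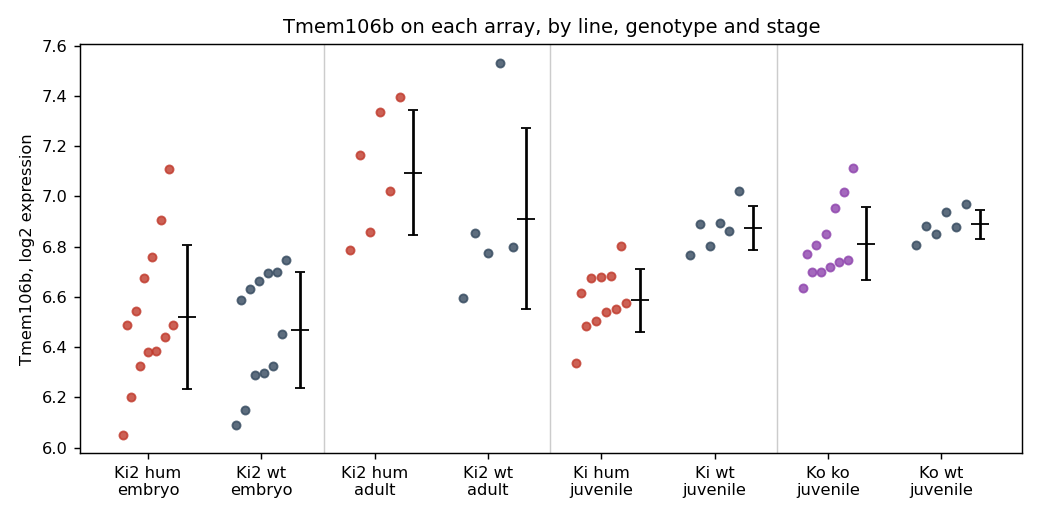
Tmem106b level (log2, vertical axis) on every array, by line, stage and genotype, with Foxp2hum/hum or Foxp2wt/ko to the left of the wild types of the same line; points are arrays and bars the mean ± SD. The 11 Foxp2hum/hum juveniles of line Ki lie at 6.34 to 6.80 and their 6 wild types at 6.77 to 7.02, while embryos and adults of line Ki2 overlap widely.

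In the other settings Tmem106b did not pass the test. In embryos Tmem106b ran from 6.05 through 6.49 to 7.11 in Foxp2hum/hum arrays and from 6.09 through 6.52 to 6.75 in wild-type arrays, a difference of 0.02 (-0.14 to 0.17; limma, adjusted p = 0.995). Foxp2hum/hum adults had 6.79 to 7.39 with a median of 7.09, against 6.60, 6.77, 6.80, 6.86 and 7.53 in wild-type adults, a difference of 0.18 (-0.19 to 0.55; limma, adjusted p = 0.834) that was 0.04 (-0.50 to 0.58) with litter as a fixed block. The embryonic interval excludes the size seen in line Ki, and the adult point estimate has the opposite sign. In line Ko, Foxp2wt/ko arrays ran from 6.64 through 6.76 to 7.11 and wild-type arrays from 6.81 through 6.88 to 6.97. The Foxp2wt/ko range enclosed the wild-type range, with 8 of 12 arrays below it and 2 above, and the difference was -0.08 (-0.20 to 0.05; limma, adjusted p = 0.9997). With litter as a fixed block it was -0.15 (-0.27 to -0.02; limma, adjusted p = 1.000), and the 3 litters with both genotypes gave -0.08, -0.19 and -0.06. The effect in line Ki minus that in line Ko was -0.20 (-0.38 to -0.03), and the effect in Ki2 embryos minus that in Ki juveniles 0.31 (0.07 to 0.55); both contain the contrast that chose the gene and are descriptions.

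Among the other neighbours, the receptors were Gpr85 (ENSMUSG00000048216_at), an orphan G protein-coupled receptor of the brain, and Met (ENSMUSG00000009376_at), the receptor tyrosine kinase for hepatocyte growth factor. Gpr85 differed by 0.01 (-0.09 to 0.11) in embryos, 0.17 (-0.18 to 0.53) in adults, -0.03 (-0.14 to 0.08) in line Ki and 0.05 (-0.06 to 0.16) in line Ko, each as Foxp2hum/hum or Foxp2wt/ko minus wild type. Adjusted p lay at 0.831 or above in these 4 limma fits. The embryonic and juvenile intervals leave room for differences of at most 0.16 in size. Met, from the fit without the filter, had 4.41, 4.86 and 6.10 as its lowest, median and highest level in Foxp2hum/hum embryos and 4.69, 4.89 and 6.30 in wild-type embryos. Its difference of -0.21 (-0.40 to -0.02) did not survive adjustment (limma, adjusted p = 0.995). Met moved with run: it averaged 4.73 in run 5 and 5.80 in run 4, and all 14 arrays of run 5 lay below all 11 of run 4.

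The caveolins Cav1 (ENSMUSG00000007655_at) and Cav2 (ENSMUSG00000000058_at), membrane scaffolds of caveolae that are abundant in blood vessel endothelium, did not differ significantly in any genotype comparison. Cav1 differed by 0.12 (-0.06 to 0.30) in embryos, 0.14 (-0.21 to 0.50) in adults, 0.09 (-0.07 to 0.25) in line Ki and -0.02 (-0.17 to 0.14) in line Ko. Cav2 differed by 0.03 (-0.16 to 0.22), 0.26 (-0.20 to 0.71), -0.04 (-0.30 to 0.21) and 0.14 (-0.11 to 0.40) in the same order. With litter as a fixed block, Cav1 differed by -0.14 (-0.29 to 0.01) in line Ko. Over all 4 comparisons both genes had limma adjusted p of 0.802 or above.

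Tes (ENSMUSG00000029552_at) encodes testin, a LIM-domain protein of focal adhesions, and Capza2 (ENSMUSG00000015733_at) a subunit of the complex that caps actin filaments. Tes differed by 0.01 (-0.15 to 0.17) in embryos, 0.00 (-0.20 to 0.20) in adults, 0.02 (-0.09 to 0.13) in line Ki and 0.01 (-0.10 to 0.12) in line Ko. In adults and juveniles the group means of Tes lay below the filter level of 6.26, so its values there describe a dim signal. Capza2 had 11.62, 11.64, 11.69, 11.82, 11.89 and 11.98 in Foxp2hum/hum adults, against 10.85, 11.17, 11.38, 11.39 and 11.91 in wild-type adults. Only 1 wild-type array reached into the Foxp2hum/hum range, yet the difference of 0.43 (0.08 to 0.78) did not survive adjustment (limma, unadjusted p = 0.019, adjusted p = 0.709; 6.80% of genes had an unadjusted p under 0.05). It was 0.15 (-0.29 to 0.60) within the 2 litters of both genotypes, an alternative added after seeing the data. In embryos, line Ki and line Ko, Capza2 differed by 0.08 (-0.02 to 0.19), 0.08 (-0.06 to 0.23) and -0.02 (-0.16 to 0.12). St7 (ENSMUSG00000029534_at), a membrane protein first described as a candidate tumour suppressor, differed by 0.05 (-0.07 to 0.18) in embryos, -0.04 (-0.35 to 0.26) in adults, -0.10 (-0.22 to 0.02) in line Ki and 0.02 (-0.09 to 0.13) in line Ko. The narrow juvenile intervals of these genes limit any shift there to about 0.23 in size.

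**Figure D4:**
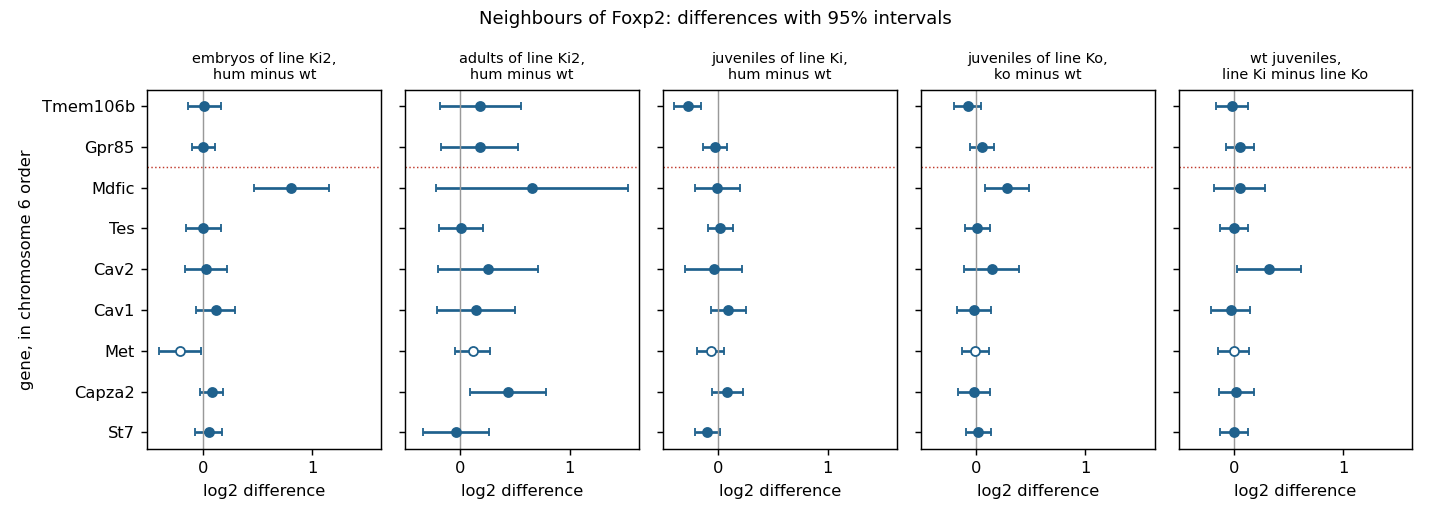
Log2 difference with 95% intervals of the 9 neighbours, in chromosomal order. The last panel shows wild-type juveniles, line Ki minus line Ko, and the others Foxp2hum/hum or Foxp2wt/ko minus wild type. The dotted line marks the place of Foxp2 and the open circle Met, from the fit without the filter. Mdfic stands out in embryos at 0.81 and Tmem106b in line Ki at -0.28, while Gpr85 and Tes, the listed genes next to the Foxp2 place apart from Mdfic, lie between -0.03 and 0.02 in those 2 panels.

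The neighbours were also counted together. In embryos all 8 tested had a positive difference with a median of 0.04, against 48.5% positive and a median of -0.00 over all genes. Mdfic, chosen on these arrays, is among the 8, and Tmem106b, Gpr85 and Tes differed by only 0.02, 0.01 and 0.01. Under some alternatives the sign of these small differences changed. In adults 7 of 8 were positive with a median of 0.18, against 47.8% and -0.01 over all genes. Wild-type adult replicate 1 was the lowest wild-type adult in Tmem106b, Gpr85, Mdfic, Cav2, Capza2 and St7. Without that array the adult difference was 0.03 in Cav2 and 0.07 in Gpr85, both still positive. In line Ki 3 of 8 were positive with a median of -0.02, against 53.9% and 0.01 over all genes, and in line Ko 5 of 8 with 0.02, against 44.8% and -0.01. The median absolute difference was 0.04 in embryos, 0.18 in adults, 0.06 in line Ki and 0.04 in line Ko, beside 0.05, 0.12, 0.05 and 0.04 over all genes tested. These are counts over genes that share arrays, and no test was attached to them. The line Ki count includes Tmem106b, chosen on those arrays. Met, left out by the filter, differed by -0.21 in embryos, 0.11 in adults, -0.07 in line Ki and -0.01 in line Ko.

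The wild types of lines Ki and Ko carry no modified allele, so differences between them concern the lines and not the allele. Of the 8 neighbours tested 0 passed, and 0.0106% of all genes did. Mdfic differed by 0.05 (-0.18 to 0.29; limma, adjusted p = 0.929) and Tmem106b by -0.01 (-0.16 to 0.13; limma, adjusted p = 0.975), as line Ki minus line Ko. The intervals of both genes concern a difference between lines. Since these wild types carry no modified allele, this comparison cannot show an effect of DNA inherited with it, which was not tested. The largest line difference was that of Cav2, which ran from 8.34 through 8.69 to 8.96 in wild types of line Ki and from 8.07 through 8.29 to 8.73 in wild types of line Ko. The ranges overlapped and the difference of 0.32 (0.03 to 0.61) did not survive adjustment (limma, adjusted p = 0.490; 9.30% of genes had an unadjusted p under 0.05). The other 5 differed by -0.03 to 0.06. Wild types of line Ki2 were of other stages and could not be set against those of lines Ki and Ko.

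Several neighbours differed far more between stages than between genotypes. In wild types of line Ki2, adults minus embryos, 5 of the 8 tested passed (2 higher, 3 lower), beside 63.9% of all genes (30.2% higher, 33.7% lower). Tes was at 5.64 to 5.81 in the 5 adults and 8.33 to 8.92 in the 12 embryos, a difference of -2.86 (limma, adjusted p = 2.99e-13). Tes passed the filter level of 6.26, set on the mean of all arrays, only through its embryonic values. The adult side of its difference thus lay in the range of genes left out as dim, and its size is uncertain. Gpr85 was at 8.67 to 9.39 in adults and 10.61 to 10.86 in embryos (-1.65), and St7 at 6.91 to 7.44 in adults and 8.32 to 9.18 in embryos (-1.54). All 5 adults lay below all 12 embryos for these 3 genes, as they did for 21.5% of all genes. Cav2 did the opposite, at 8.19 or above in adults and 7.48 or below in embryos (+1.81; 19.8% of genes had all adults above), while its neighbour Cav1 differed by 0.13 (-0.24 to 0.50). Tmem106b was higher in adults by 0.41 (0.05 to 0.77; limma, adjusted p = 0.0451), a call that was lost without adult replicate 4 (0.25, adjusted p = 0.152), without replicate 3 or 5, with embryos of run 4 alone (0.22) and with litter as a random block (0.33). Mdfic was higher by 0.81 (0.00 to 1.62) and did not pass (limma, adjusted p = 0.0747), though it did without adult replicate 1 (1.05, adjusted p = 0.0246) or replicate 3 (0.97, adjusted p = 0.0466); without replicate 4 it was 0.33. Run and stage cannot be told apart in this comparison.

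Among juveniles, day 21 minus day 15, 2 of the 8 tested passed, both lower, beside 29.6% of all genes (18.2% lower, 11.4% higher). Gpr85 was lower by 0.14 (limma, adjusted p = 0.0180) and Tes by 0.14 (limma, adjusted p = 0.0186). The juvenile group means of Tes, 6.00 to 6.02, lay below the filter level of 6.26. Its call therefore rests on a dim signal, admitted to the test by the embryonic arrays. Over the alternatives the limma adjusted p rose to 0.0444 for Gpr85 and 0.04996 for Tes. In line Ki the 2 days came from different litters, so day and litter cannot be told apart there. The 4 group means of Gpr85 lay at 9.37 to 9.50 on day 15, 9.17 to 9.34 on day 18 and 9.18 to 9.29 on day 21. On days 15, 18 and 21, Tes averaged 6.12, 5.93 and 5.99 in Foxp2hum/hum and 6.07, 5.84 and 6.09 in wild-type juveniles of line Ki, and 6.13, 5.91 and 5.99 in Foxp2wt/ko and 6.18, 5.99 and 5.83 in wild-type juveniles of line Ko. The wild types of line Ki were thus not lower in Tes on day 21 than on day 15. Mdfic and Tmem106b differed by -0.05 (-0.22 to 0.11) and 0.07 (-0.03 to 0.17) over these days.

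Mdfic varied widely between animals of the same group. Its residual SD after group, sex and run was 0.46 in embryos, larger than that of 99.4% of genes, and 0.79 in adults, larger than that of 98.3%. In juveniles it was 0.21, larger than that of 81.9% of genes. By comparison the residual SD of Tmem106b exceeded that of 67.4% of genes in embryos, 63.8% in adults and 26.2% in juveniles.

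The genes most like Mdfic over the 25 embryonic arrays, by Pearson correlation of residuals after sex and run, were ENSMUSG00000022949_at (r = 0.90) and ENSMUSG00000038526_at (r = 0.86). The arrays share runs and litters and genotype was left in, so these values are descriptions. With genotype also removed, Mdfic and ENSMUSG00000022949_at correlated at 0.89 over 25 embryos and 0.94 over 11 adults, but at -0.24 over 35 juveniles. The adult value includes wild-type replicate 4, which lies far from the other adults in both genes. For ENSMUSG00000038526_at the values were 0.89, 0.21 and -0.40 in the same order. For the remaining 1 of the 3 most similar genes they were 0.84, 0.92 and 0.33. The like gene itself was at 7.14 ± 0.70 in Foxp2hum/hum and 6.50 ± 0.54 in wild-type embryos, a difference of 0.63 (0.17 to 1.09). In the adult wild-type replicate 4, where Mdfic stood at 9.82, it was at 10.87, against 7.54 to 8.27 in Foxp2hum/hum adults and 7.05 to 7.65 in the other wild-type adults. The array that set the wild-type spread of Mdfic in adults was thus also the highest for this gene. With its level as a covariate, an alternative added after seeing the data, the Mdfic difference was 0.40 (0.20 to 0.59) in embryos and 0.84 (0.48 to 1.19; limma, adjusted p = 0.663) in adults. This covariate was picked for its correlation with Mdfic in these embryos and shares the outlying adult array, so the narrower intervals add no support. Why Mdfic and this gene varied together was not tested.

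**Figure D5:**
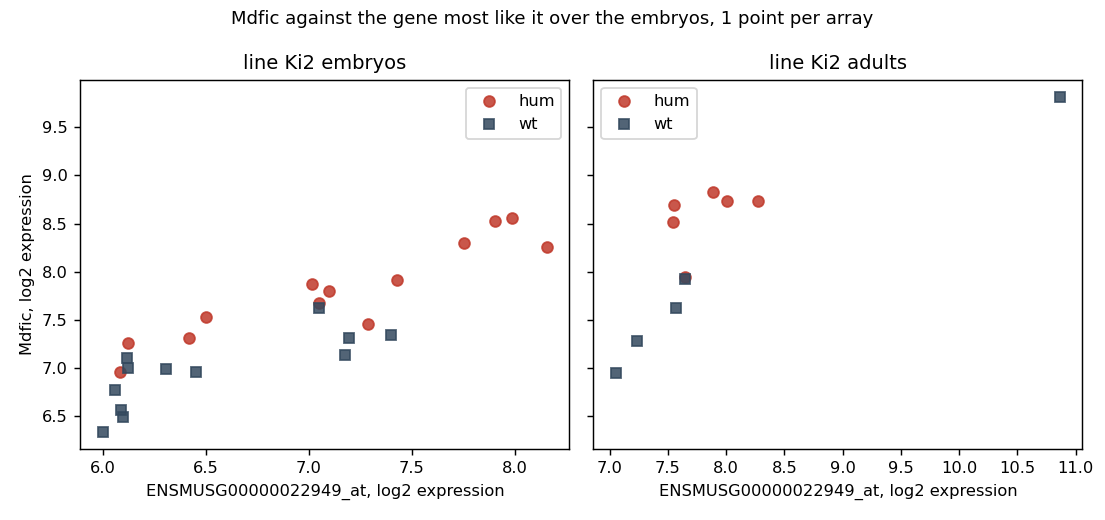
Mdfic level (log2) against the level of ENSMUSG00000022949_at (log2) on each array of line Ki2, with Foxp2hum/hum and wild-type arrays marked apart. The wild-type adult at 10.87 and 9.82 lies away from the other adults, and embryos of both genotypes spread along a rising band.

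None of the neighbours shared this pattern to the same degree. With genotype left in, Cav1 was the closest to Mdfic over the embryonic arrays at r = 0.50, ranking 209 of 9460 genes. Tmem106b stood at 0.35. Within groups Cav2 was the closest at 0.51, with Cav1 at 0.46 and Tmem106b at 0.43. For Tmem106b over the 17 arrays of line Ki the most similar genes were ENSMUSG00000021250_at (r = 0.81) and ENSMUSG00000026437_at (r = 0.78). Within groups over all 35 juveniles these correlations were -0.03 and -0.11. St7 was the closest neighbour in line Ki with genotype left in, at 0.62 and rank 57 of 9460. Within groups over all 35 juveniles, Tmem106b and St7 correlated at -0.12.

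Within groups the 36 pairs of neighbours correlated at a median of 0.31 over 25 embryos, 0.14 over 11 adults and 0.04 over 35 juveniles. Cav1 and Cav2, which lie side by side, correlated at 0.62 in embryos and 0.62 in adults, but at 0.25 in juveniles. Tmem106b and Mdfic correlated at 0.75 in adults, where wild-type replicate 4 was the highest in both, 0.43 in embryos and -0.25 in juveniles. Gpr85 and Mdfic correlated at 0.66 in juveniles, 0.09 in embryos and 0.27 in adults. Capza2 and St7 correlated at -0.62 in juveniles but 0.18 in embryos and 0.53 in adults. These correlations come from arrays that share litters and runs, and describe these samples only. No median over pairs of all genes stands beside them.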

How the data were processed

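Striatal RNA was hybridised to 1-colour oligonucleotide arrays. The authors deposited log2 values for 15768 Ensembl gene rows. How background was corrected and arrays were normalized and summarised is not stated in the labels or the file. Juvenile columns carry fewer decimals than embryonic and adult ones, so they may have been computed separately, and only the differences of the humanised effect between settings join them. Groups, sex, age, run and litter came from the labels. A filter on the mean of the 71 arrays removed the dimmest 40% of genes and kept 9461 at or above 6.26. Differences, 95% intervals and p-values came from limma 3.58.1 (R 4.3.3), using eBayes with a trend on intensity and Benjamini-Hochberg adjustment over all 9461 genes and a threshold of 0.05. Sex and run entered the embryonic fit, sex, age and run the joint fit of both juvenile lines, sex the fit of adults against embryos, and no covariate the adult fit. The fits were tested on simulated data. Precision is set by the number of arrays and their spread, with a median residual SD over genes of 0.16 in embryos, 0.26 in adults and 0.15 in juveniles. The median interval was ± 0.13 in embryos, ± 0.33 in adults and ± 0.15 in juveniles of line Ki. The genes named are the 9 neighbours and the row called in line Ko. Beside them are at most 2 of the 3 genes most correlated with Mdfic in embryos and with Tmem106b in line Ki. Rows called only under an alternative in lines Ki and Ko are also named. Litter marks shared parentage and pairs animals; the within-litter correlation of residuals was 0.0049 in embryos, -0.057 in adults, 0.23 in juveniles, 0.56 in wild-type adults and embryos together and 0.11 over all arrays. Alternatives were no filter, a 60% filter, quantile normalization, no trend, a litter block, leaving sex or run out of the fit, 1 run, sex or line at a time, the pooled array or each adult array left out, and the adult principal component. The genes and lists were chosen with earlier results of these data known. The 18 lists of 133 symbols (cell types, relatives and pathways) could not be matched to the identifiers and were not tested.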

Additional observations from a re-analysis of the deposited data

Results flagged for a closer look

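In 36 sets of 1 gene in 1 group of 4 to 10 arrays, 4 had an array far from the others, where chance gives about 1 in 20. Mdfic stood at 7.95 in Foxp2hum/hum adult replicate 5, below the other 5 arrays at 8.51 to 8.83. Tmem106b stood at 7.53 in wild-type adult replicate 4, above the other 4 at 6.60 to 6.86; this is the array with the highest Mdfic. Cav1 stood at 9.00 in wild-type replicate 1 of line Ko, above the other 5 at 8.30 to 8.48. Met stood at 4.48 in Foxp2hum/hum adult replicate 1, the lowest of its 6 arrays.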

How the results depend on the processing

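None of the 8 neighbours passed in any genotype or wild-type line comparison under any alternative run, and no called value changed sign. Mdfic stayed higher in Foxp2hum/hum embryos in all 12 alternatives (0.28 in run 4 alone to 1.04 in run 5 alone) and in Foxp2wt/ko juveniles in all 15 (0.21 to 0.34). Tmem106b stayed lower in Foxp2hum/hum juveniles of line Ki in all 14 (-0.35 to -0.19). The embryonic arrays chose Mdfic and the line Ki arrays chose Tmem106b. The alternatives there are refits or parts of those same arrays, so their shared sign adds no support. In adults, leaving out 1 array at a time moved the Mdfic difference between 0.41 and 1.13. With litter as a fixed replicate block, Mdfic differed by 0.86 in embryos, 0.21 in adults and 0.28 in line Ko, and Tmem106b by -0.33 in line Ki; no neighbour gained or lost a genotype call. Between adults and embryos no litter holds both stages, and there a random litter block lost the Tmem106b call (0.33, adjusted p = 0.148). That call was also lost without the filter (0.41, adjusted p = 0.0584) and with quantile normalization (0.33, adjusted p = 0.105). Counts over all genes moved as follows. In line Ki, 1 gene passed without the filter, in run 3 alone and on day 15 alone, against 0. It was a different gene each time: ENSMUSG00000076612_at (-0.21), ENSMUSG00000025889_at (7.25) and ENSMUSG00000027220_at (-1.02), as log2 differences. In embryos, 1 passed among males only, against 0. In line Ko, 0 passed in run 1 or 2 alone or on day 15, 18 or 21 alone, against 1. Line Ko arrays alone also gave 0. Run 3 alone called 1, but a different gene, ENSMUSG00000025889_at, at a log2 difference of 6.47. The same row was called in run 3 of line Ki, and run 3 held 2 wild-type arrays of each line. With all juvenile arrays it passed in neither line, and the cause of its large difference was not tested. Between wild types of the lines, 0 passed with the dimmest 60% left out, with litter as a random block, without sex, without run and in single runs, against 1. For the humanised minus knock-out effect, 0 passed without run and in single runs, against 1. Fewer arrays enter single-run, single-day and single-sex fits; the other causes were not tested. Single days, the litters of both genotypes and the covariate were added after seeing the data.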
